A study of Canis lupus familiaris with 8 samples.

Results

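YAP and TAZ are coactivators that shuttle between cytoplasm and nucleus and switch on genes through the TEAD DNA-binding factors. In epithelial monolayers they are known to respond to cell shape, crowding and tension, and a small set of their direct targets is commonly used to read their activity. The 6 such genes described here were chosen by name. They are CCN1 and CCN2, which encode secreted matrix-associated proteins once called CYR61 and CTGF, ANKRD1, which encodes a nuclear and sarcomeric ankyrin-repeat protein, F3, the gene of tissue factor, CRIM1, which encodes a transmembrane regulator of BMP ligands, and AXL, which encodes a receptor tyrosine kinase. All 6 were among the 37952 genes of the count table, and 5 of them, all but AXL, were abundant enough to be among the 14571 genes tested.

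The cells were MDCK GII, a single dog kidney epithelial line, grown as monolayers on collagen-coated elastic membranes. In 4 wells, equal in-plane strain of 18% was held for 2 hours, and 4 control wells were not strained. The title of the series links the experiment to force on E-cadherin and to EGFR-ERK signalling. The labels call the wells technical quadruplicates, so p-values measure the spread between wells of 1 line. RNA was read as counts per gene over exons, with 27047358 to 32478887 counts per well. All 7 epithelial markers on the list were tested, and their summed level was 4983 to 5554 CPM (read counts scaled to a common library total with TMM factors) in control wells and 5270 to 5367 CPM in stretch wells. The 9 markers of fibroblasts, endothelium and blood cells summed to 3.95 to 5.95 CPM and 4.43 to 5.93 CPM, and COL3A1 and PTPRC had 0 counts in every well. In these bulk libraries a change in the number of expressing cells and a change in RNA per cell cannot be told apart.

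CCN1, CCN2 and ANKRD1 were higher in every stretch well than in any control well. The same separation upwards was found for 1.3% of all tested genes, and a higher value in all 4 same-numbered pairs of wells for 8.45%. ANKRD1 had the largest fitted log2 increase of the 14571 genes (rank 1 with and without pairing of wells), CCN2 rose about 2-fold, and CCN1 had the largest difference in mean CPM of the members, 99.5. F3 was higher in 3 of 4 pairs, the difference in CRIM1 was smaller than the SD of either group, and AXL was close to the limit of detection. In edgeR's quasi-likelihood test without pairing, 0 of the 5 tested members passed at an adjusted p of 0.05, as did 0 of all genes (0%), while 3 members and 579 genes (3.97%) fell under 0.05 before adjustment. Once the replicate number entered edgeR's fit as a block, 1 of the 5 members, CCN2, passed, against 0.7% of all genes. A coarser block of 2 levels (replicates 1 and 2, replicates 3 and 4) called 0 of the 5, against 0.398% of all genes. DESeq2 without the block called 2 of the 5, CCN1 and CCN2, against 0.275% of all genes.

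**Figure D1:**
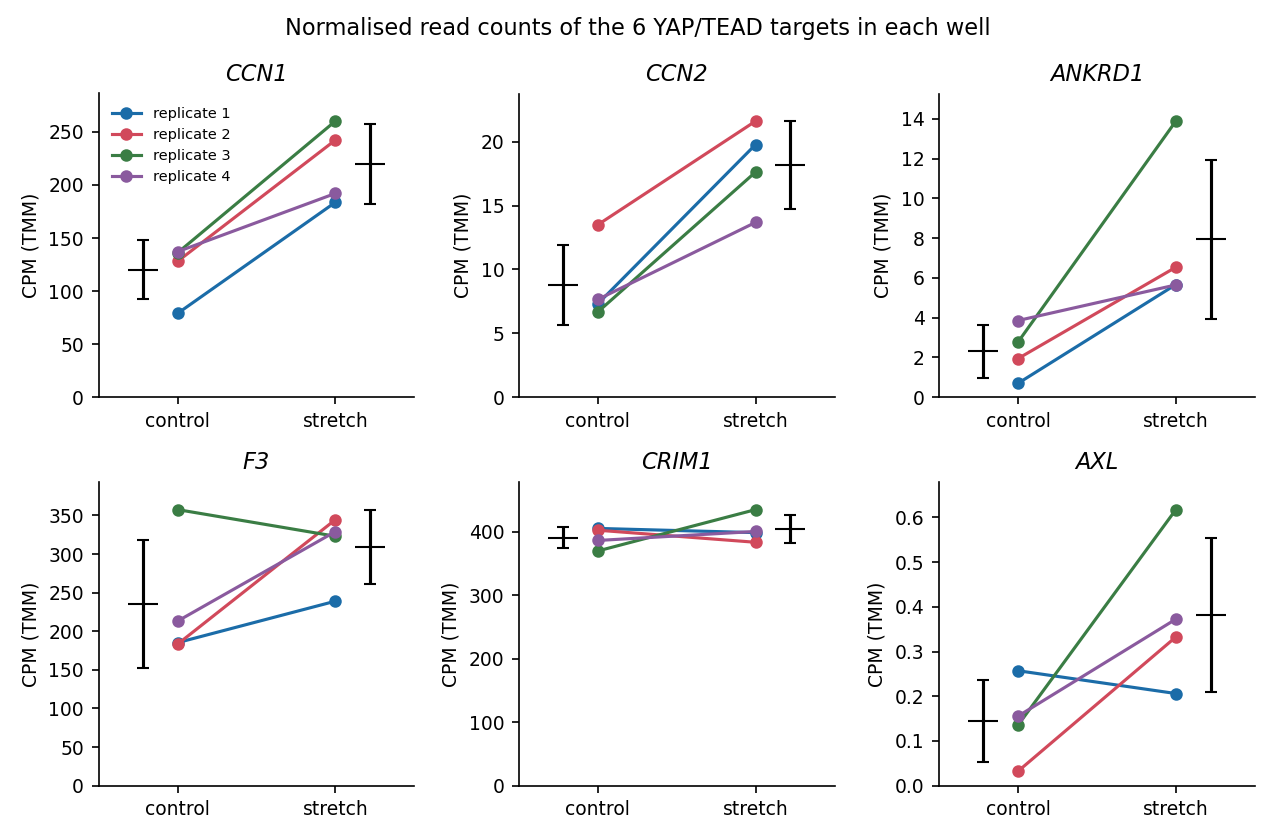
CPM of each gene in the 4 control and 4 stretch wells; lines join wells with the same replicate number, and black marks with bars are the mean ± SD of 4 wells. CCN1, CCN2 and ANKRD1 have no overlap between groups, whereas control replicate 3 of F3, at 358 CPM, lies above all 4 stretch wells.

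CCN2 encodes a secreted protein that binds integrins, proteoglycans and growth factors, and lies on chromosome 1 (25137679 to 25140601, minus strand). Its control wells 1 to 4 held 7.31, 13.5, 6.67 and 7.65 CPM, and its stretch wells 19.8, 21.6, 17.6 and 13.7 CPM. Control replicate 2 stood well above the other control wells and only just below stretch replicate 4, so the groups were separated by a narrow margin. The means were 8.78 ± 3.17 and 18.2 ± 3.41 CPM (SD, n = 4 each). In the blocked fit the log2 change was 1.07 ± 0.13 (SE), a 2.10-fold increase with a 95% interval of 1.74 to 2.54. The unblocked fit gave a log2 change of 1.04 ± 0.23 (SE), with a wider 95% interval of 0.53 to 1.56 on the log2 scale. In the blocked fit that interval ran from 0.80 to 1.35. EdgeR's adjusted p was 0.00194 in the blocked fit and 0.496 in the unblocked one. A two-sided exact permutation test of log2 CPM gave p = 0.0286, the smallest that 4 against 4 wells allow. Any gene without overlap between the groups takes this value, which is not adjusted for the number of genes. Scaled by library size alone, control replicate 2 held 13.603 CPM and stretch replicate 4 held 13.578 CPM, and the exact permutation p became 0.0571. Leaving out control replicate 2, the control well closest to the stretch wells, brought edgeR's adjusted p without the block to 0.0265. Leaving out any other single well gave 0.37 to 0.99996 in the same test.

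CCN1, the closest relative of CCN2 in this set, encodes another secreted integrin ligand and lies on chromosome 6 (62986500 to 62989314, minus strand). Control wells 1 to 4 held 78.9, 128, 136 and 137 CPM and stretch wells 184, 242, 260 and 192 CPM. Control replicate 1 was the lowest well by a wide margin, and the gap between the groups, from 137 to 184 CPM, was wide as well. The means were 120 ± 27.7 and 220 ± 37.5 CPM (SD, n = 4 each), and the fitted log2 change was 0.89 ± 0.13 (SE) in the blocked and 0.87 ± 0.20 in the unblocked model. The exact permutation p was again 0.0286, unadjusted and fixed by the lack of overlap. CCN1 did not pass in edgeR (adjusted p of 0.149 when blocked, 0.709 when unblocked). It passed in DESeq2 without the block (adjusted p = 0.015) and with it (7.4e-07). In limma-voom it passed with the block (adjusted p = 4.3e-04) and not without it (0.165). Its fold was smallest in pair 4, at 1.4, and between 1.89 and 2.33 in the others. With the block and without pairs 1, 2, 3 and 4 in turn, edgeR's adjusted p was 0.0138, 0.557, 0.539 and 2.8e-05, so that CCN1 passed without pair 1 or pair 4 and not without the others.

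ANKRD1 is an early-response gene of stretched heart muscle and of many adherent cells, and lies on chromosome 28 (5750959 to 5760237, minus strand). Its raw counts were 19, 60, 82 and 124 in control wells and 165, 177, 405 and 182 in stretch wells. The highest control well was still below the lowest stretch well, and stretch replicate 3 was far above the rest. In normalised terms the control wells held 0.698, 1.94, 2.78 and 3.86 CPM and the stretch wells 5.67, 6.54, 13.9 and 5.65 CPM. In the blocked fit its log2 change was 1.77 ± 0.42 (SE), a ratio of 3.41 with a 95% interval of 1.58 to 7.38. Its pairs were 8.12-, 3.37-, 5.00- and 1.46-fold higher for replicates 1 to 4, so that a large mean change went with a large spread. It did not pass in edgeR (adjusted p of 0.303 when blocked, 0.935 when unblocked) or in DESeq2 without the block (0.282). In limma-voom it passed with the block (adjusted p = 0.00934) and not without it (0.435). The exact permutation p was 0.0286, a value unadjusted and fixed by the lack of overlap. With the block and without pairs 1, 2, 3 and 4 in turn, edgeR's adjusted p was 0.268, 0.717, 0.606 and 4.6e-04, so that ANKRD1 passed without pair 4 and not without any other pair.

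**Figure D2:**
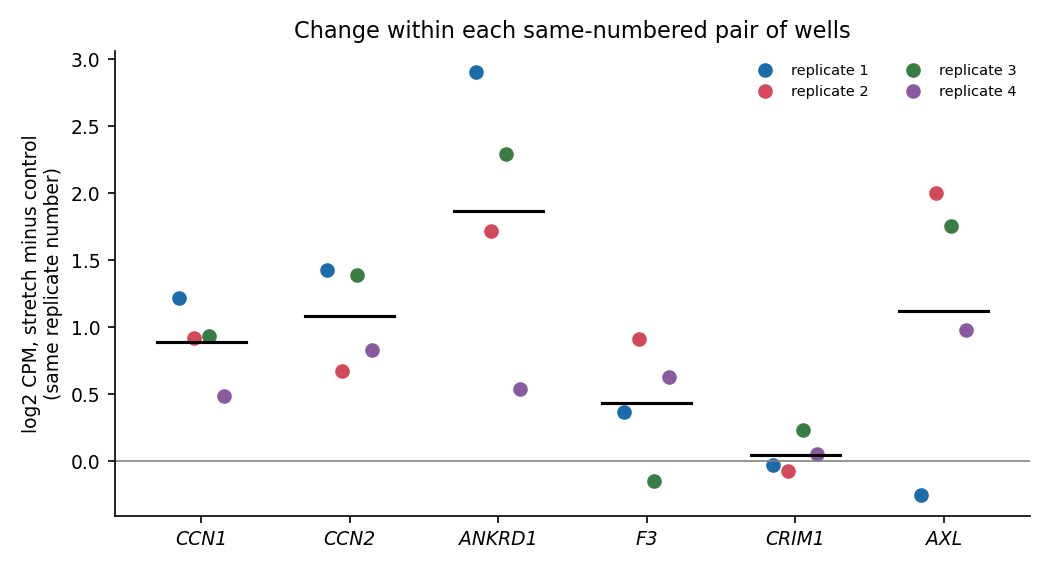
Difference in log2 CPM (prior count 2), stretch minus control, within each same-numbered pair of wells; bars mark the mean of 4 pairs. All 4 points of CCN1, CCN2 and ANKRD1 lie above 0, while CRIM1 has 2 of 4 and F3 and AXL 3 of 4 above it.

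F3 encodes tissue factor, the membrane receptor that starts the extrinsic clotting cascade and also signals through protease-activated receptors. It lies on chromosome 6 (55203270 to 55214213, plus strand). Control wells 1 to 4 held 185, 183, 358 and 213 CPM and stretch wells 239, 345, 323 and 329 CPM. The other 3 control wells were below every stretch well, and control replicate 3 was above every stretch well. In the blocked fit the log2 change was 0.44 ± 0.22 (SE), with a 95% interval from -0.23 to 1.11, and F3 did not pass (edgeR's adjusted p of 0.753 when blocked, 0.999 when unblocked; exact permutation p = 0.143). Leaving out control replicate 3 raised the log2 change without the block from 0.40 to 0.67, and edgeR's adjusted p was then 0.289.

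CRIM1 encodes a membrane protein with cysteine-rich repeats that binds BMPs, and it lies on chromosome 17 (29016015 to 29200891, plus strand). It was the most abundant member in CPM and the least variable, with 405, 402, 370 and 386 CPM in control wells and 398, 383, 435 and 400 CPM in stretch wells. The groups overlapped. The blocked fit gave a log2 change of 0.05 ± 0.04 (SE), and its 95% interval ran from -0.046 to 0.14, so that an increase as large as that fitted for CCN1 lay outside it (edgeR, adjusted p = 0.863 with the block). CRIM1 overlaps 1 other annotated gene on the same strand.

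AXL, the receptor for the ligand GAS6, lies on chromosome 1 (113484923 to 113511641, minus strand). It had 7, 1, 4 and 5 counts in control wells and 6, 9, 18 and 12 in stretch wells. Control replicate 1 exceeded stretch replicate 1, and the other 3 stretch wells exceeded all control wells. The exact permutation p for log2 CPM was 0.0571, and no fold change is given at these counts. AXL also overlaps 2 genes on the opposite strand, and the strand setting of the counting is not given in the sources used here.

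The responses of the members were compared with each other through the difference in log2 CPM between genes in the same well, for all 10 pairs of the 5 tested members. CCN1, CCN2 and ANKRD1 exceeded CRIM1 by 0.84, 1.03 and 1.82 on the log2 scale, each larger in 4 of 4 pairs of wells (exact permutation p = 0.0286). After Benjamini-Hochberg adjustment over the 10 comparisons the exact permutation p of these 3 was 0.0952, and 0 of 10 passed. As 0.0286 was the smallest p possible, none could pass unless most of the 10 reached it. The absence of calls therefore does not show that the members responded alike. The response of CCN2 exceeded that of CCN1 by 0.19, less than the SD of this difference over the pairs of wells, 0.31 (adjusted exact permutation p = 0.543). The response of ANKRD1 exceeded that of CCN1 by 0.98 and was larger in 4 of 4 pairs (adjusted exact permutation p = 0.114).

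Levels of different genes were compared as CPM per kilobase of exon. In control wells the order was F3 at 131 ± 46.2, CRIM1 at 70.5 ± 2.96, CCN1 at 62.6 ± 14.4, CCN2 at 4.08 ± 1.47, ANKRD1 at 1.12 ± 0.643 and AXL at 0.0368 ± 0.0234 CPM per kilobase (SD, n = 4). CRIM1 and CCN1 overlapped, and the other neighbours did not. In stretch wells CCN1, at 114 ± 19.5, was above CRIM1, at 72.9 ± 3.92, with no overlap. CCN2, at 8.45 ± 1.58, and ANKRD1, at 3.82 ± 1.92 CPM per kilobase, overlapped. CCN1 was thus far more abundant per length than CCN2 in both groups. The remaining CCN family genes were scarcely detected. CCN4 had 0 counts in all 8 wells, which allows up to 3 counts per well or 0.0931 to 0.111 CPM, CCN3 had at most 1, CCN5 at most 4 and CCN6 at most 9 counts in a well.

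**Figure D3:**
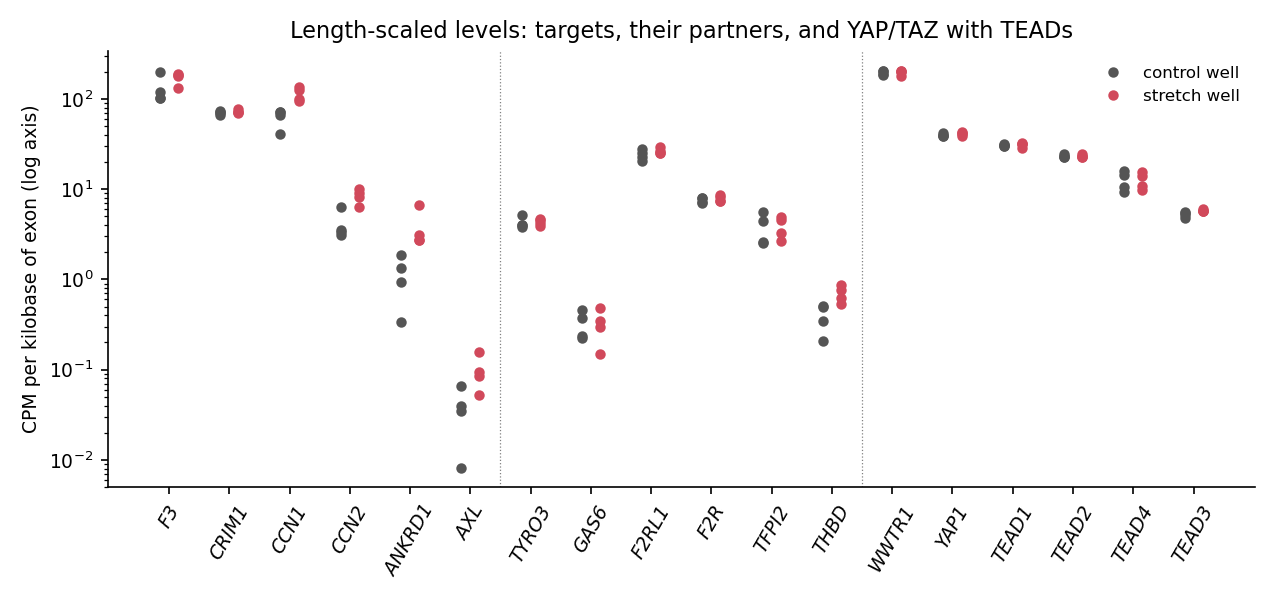
Level of each gene in CPM per kilobase of exon (log axis), 1 point per well, for the 6 targets, for partners of tissue factor and AXL, and for YAP/TAZ with the TEAD genes. CCN1 moves from 62.6 to 114 CPM per kilobase, past CRIM1, and WWTR1, the gene of TAZ, stays near 197 in both groups.

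None of the tested coactivator genes, TEAD genes or VGLL genes, which encode competitors or cofactors of TEAD, passed the test. Of 10 listed, 9 were tested, and 0 passed in edgeR in either fit. In the unblocked fit 2 of the 9 were under 0.05 before adjustment, beside 3.97% of all tested genes. Their median log2 change was 0.014 with the block, beside -0.0022 for all tested genes. YAP1 had 188 CPM in control and 193 CPM in stretch wells, and WWTR1 908 and 909 CPM, with 95% intervals of the log2 change from -0.037 to 0.12 and from -0.066 to 0.069 with the block. TEAD1, the most abundant TEAD gene per length, had a log2 change of 0.014 in the same fit. The 3 genes with the smallest p in the unblocked fit were VGLL4, VGLL1 and TEAD3. VGLL4, which encodes a protein that competes with YAP for TEAD, had 45.7, 51.0, 50.5 and 51.8 CPM in control wells and 45.0, 43.6, 41.7 and 45.3 CPM in stretch wells. Every stretch well of VGLL4 was below every control well, a separation found for 1.24% of all tested genes, and its log2 change was -0.18 ± 0.05 (SE; edgeR with the block, adjusted p = 0.168). VGLL1 had 5 to 14 counts in control and 14 to 22 in stretch wells. TEAD3 had a log2 change of 0.15. Its stretch wells, at 16.93 to 17.90 CPM, were all just above its control wells, at 14.36 to 16.89 CPM. This upward separation was found for 1.3% of all tested genes. The adjusted p of VGLL1 and TEAD3 in edgeR's blocked fit was 0.56 and 0.604.

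Beside the members, 16 further genes of a general YAP/TAZ target signature were examined, of which 12 were tested. IGFBP3, FOXF2, NT5E and RBMS3 had at most 3 counts in any well. Of the 12, 10 were higher after stretch, where 48.8% of all tested genes had a log2 change above 0, and the median log2 change was 0.17 with the block. In edgeR 0 passed unblocked (4 of the 12 fell under 0.05 before adjustment, beside 3.97% of all tested genes). When blocked, 3 passed, all higher (25.0% against 0.528% of all genes called higher). These were NUAK2, a kinase of the AMPK-related family, AMOTL2, an angiomotin that binds YAP, and LATS2, the kinase that phosphorylates YAP. AMOTL2 rose by 0.59 ± 0.07 (SE), NUAK2 by 0.61 ± 0.06 and LATS2 by 0.31 ± 0.05 on the log2 scale, each in 4 of 4 pairs (edgeR with the block, adjusted p = 6.2e-04, 1.6e-04 and 0.00522). The control wells of NUAK2 spread from 17.3 to 37.7 CPM and overlapped the stretch wells, at 24.7 to 56.0 CPM. LATS2 also passed with the coarser block (edgeR, adjusted p = 0.0181), while AMOTL2, NUAK2 and the member CCN2 did not (0.218, 0.601 and 0.0552). ARHGEF17, PTPN14, GADD45A and ASAP1 were higher in 4 of 4 pairs without passing. In all, 7 of the 12 were higher in every pair, against 8.45% of all tested genes. MYOF, CCDC80, DOCK5 and TGFB2 had log2 changes between -0.023 and 0.029 with the block.

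**Figure D4:**
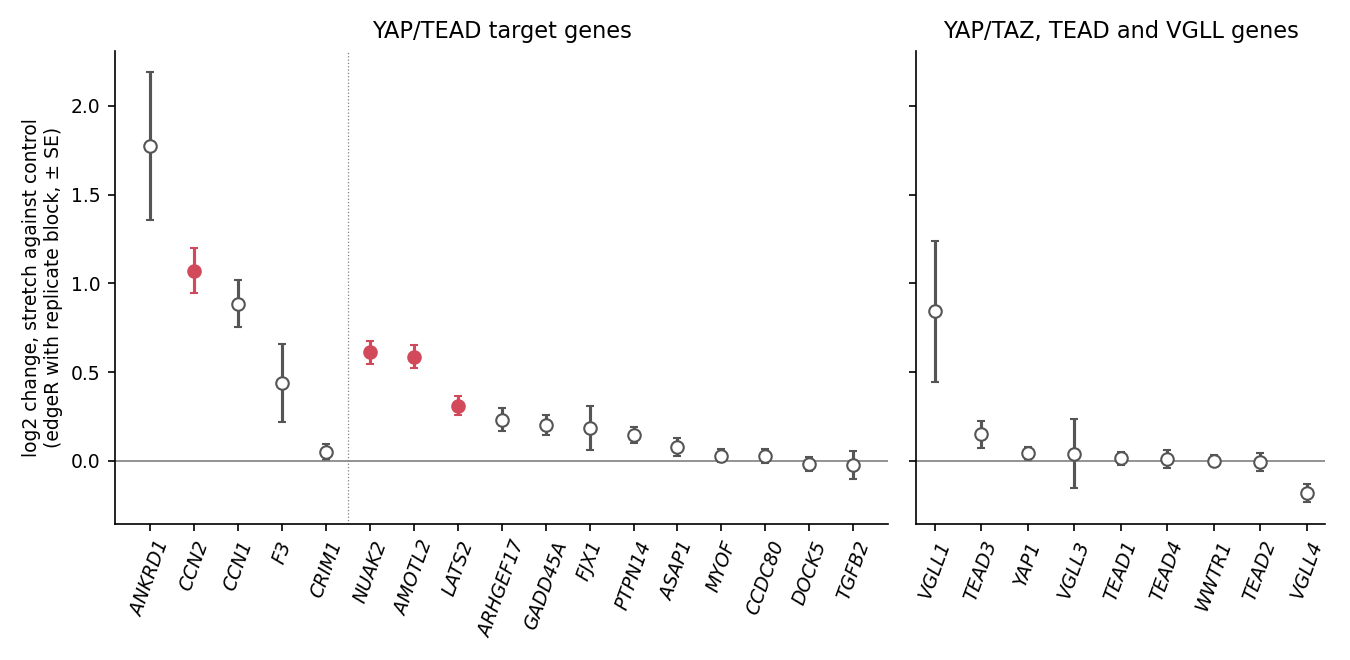
Log2 change after stretch from edgeR with the replicate block, ± SE, for the 5 tested members and 12 other signature genes (left, divided by the dotted line) and for YAP/TAZ, TEAD and VGLL genes (right); filled red points passed an adjusted p of 0.05. CCN2, NUAK2, AMOTL2 and LATS2 are filled, and ANKRD1, at 1.77, has the largest change and the widest SE.

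Of 22 listed ligands, receptors, inhibitors and relatives of the members, 17 were tested and 0 passed in edgeR in either fit. In the unblocked fit 1 of the 17 was under 0.05 before adjustment, beside 3.97% of all tested genes. RNA of several classical partners of tissue factor, which reach it from plasma, was not or barely detected. TFPI, the main inhibitor of tissue factor, and F10 had 0 counts in all wells, and F7 had at most 2 counts in a well. F2R and F2RL1, which encode the protease-activated receptors PAR1 and PAR2, were present at 27.2 and 28.7 CPM in control wells. THBD, the gene of the anticoagulant thrombomodulin, had the smallest p of the list in the unblocked fit, with 25, 12, 28 and 21 counts in control wells and 29, 32, 42 and 52 in stretch wells, with no overlap in CPM (edgeR with the block, log2 change 0.87 ± 0.30, adjusted p = 0.286). BMP4 and F2RL1 came next in the unblocked fit, and BMP4 had a smaller p than THBD in the blocked one. The blocked log2 changes of BMP4 and F2RL1 were 0.19 and 0.16, and edgeR's adjusted p was 0.189 and 0.441. Among the sister receptors of AXL, TYRO3 held 4.24 ± 0.618 CPM per kilobase in control wells, far above AXL, and MERTK had at most 2 counts in a well. Of the ligands of these receptors, GAS6 had 12 to 35 counts per well and PROS1 had 0.

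The wells also ordered the members in different ways. CCN1 and ANKRD1 shared their lowest well, control replicate 1, and their highest, stretch replicate 3, whereas CCN2 was highest in stretch replicate 2 and F3 in control replicate 3. As a description of likeness, Pearson's r of log2 CPM over the 8 wells was computed between each tested member and 11072 named genes with at least 1 CPM. The genes closest to CCN1 were HBEGF, LIF and AMOTL2 (r = 0.99, 0.98 and 0.97), and after subtraction of each group's mean the values were 0.97, 0.95 and 0.92. HBEGF, the gene of an EGFR ligand, had 15.9, 21.9, 23.0 and 22.8 CPM in control wells and 29.3, 39.9, 42.5 and 33.9 CPM in stretch wells, which puts the wells in nearly the same order as CCN1. The genes closest to ANKRD1 were KLHDC7A, AMOTL2 and OLFM1 (r = 0.97 for each), and those closest to CCN2 were GNE, SEC61A2 and EGR1 (r = 0.97, 0.96 and 0.93). After the same subtraction the values were 0.94, 0.93 and 0.97 for ANKRD1 and 0.90, 0.91 and 0.80 for CCN2. GNE and SEC61A2 each overlap 1 gene on the opposite strand. The genes closest to F3 were BCL3, IL10RA and SNAI1 (r = 0.99, 0.96 and 0.96), all of them highest or second highest in control replicate 3 among the wells, and BCL3 and IL10RA each overlap 1 opposite-strand gene. PODN, PTPRD and CLIC4 were closest to CRIM1 (r = 0.96 for each). These wells share a cell line and their group, and no test attaches to values chosen as the highest among many.

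**Figure D5:**
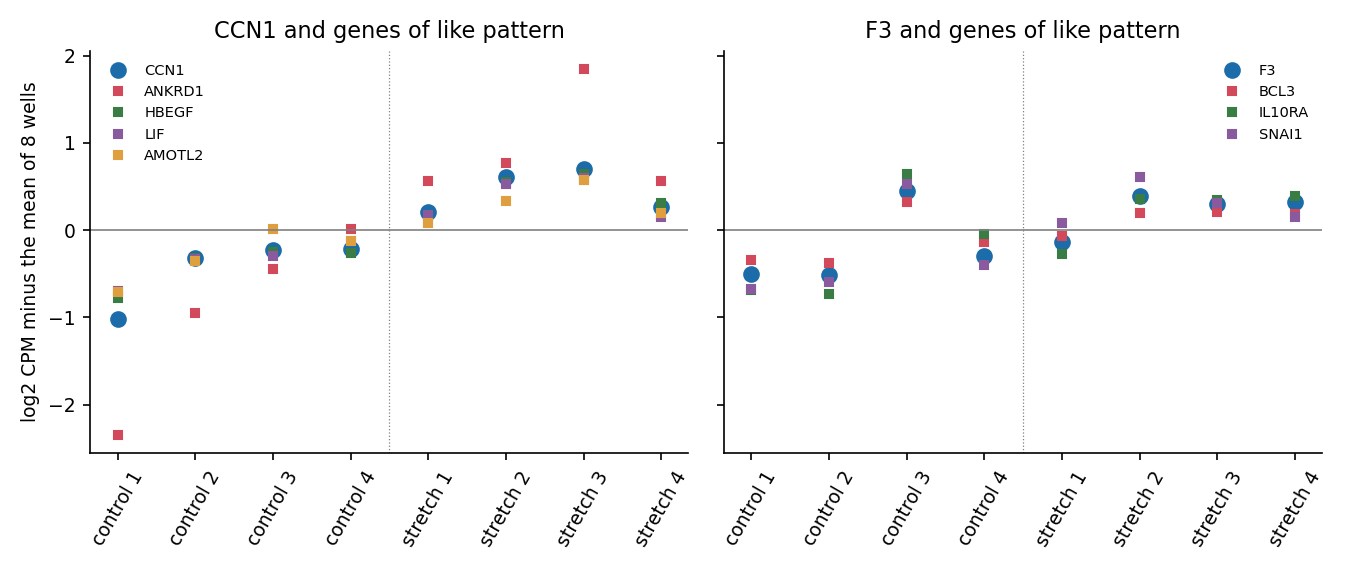
Log2 CPM of each gene minus its mean over the 8 wells, for CCN1 with ANKRD1 and the 3 genes closest to CCN1 (left) and for F3 with its 3 closest genes (right). On the left the control and stretch wells separate for CCN1; on the right control replicate 3 lies above all stretch wells for F3, BCL3 and IL10RA, and below stretch replicate 2 alone for SNAI1.

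The first principal component of the 1000 most variable genes held 28.2% of their variance, and the division of the wells into replicates 1 and 2 and replicates 3 and 4 accounted for 76.6% of its scores, so the changes were also fitted within each of these sets of 2 against 2 wells. The log2 changes of CCN2 were 0.98 ± 0.30 (SE) and 1.13 ± 0.15, those of CCN1 1.04 ± 0.38 and 0.73 ± 0.16, those of ANKRD1 2.18 ± 0.32 and 1.55 ± 0.62, and those of F3 0.66 ± 0.25 and 0.20 ± 0.34. CRIM1 had -0.047 ± 0.05 in the first set and 0.15 ± 0.07 in the other. All but CRIM1 kept their direction, and which member passed differed: ANKRD1 in the first set (edgeR, adjusted p = 0.00726) and CCN2 in the other (adjusted p = 0.00207).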

How the data were processed

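The authors deposited raw exon-level read counts per gene for 8 polyA-selected TruSeq libraries. FastQC 0.11.8, Trim Galore 0.6.5, STAR 2.7.3a, Subread and featureCounts are named in the submitters' processing notes. The genome build, strand setting and treatment of multi-mapped reads are not given in the sources used here, and 0 per-sample columns belonged to no sample. Of 37952 gene symbols, 37291 matched RefSeq's table for UU_Cfam_GSD_1.0, all 37291 with the same start and end, and coordinates are printed as deposited. Sequences were not analysed here.

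Counts were tested in R 4.3.3 with edgeR 4.0.16 (TMM, filterByExpr with a minimum count of 10 and a minimum total of 15, robust glmQLFit and glmQLFTest, an intercept and a stretch term), with Benjamini-Hochberg adjustment over 14571 genes and a threshold of 0.05. Limma 3.58.1 and DESeq2 1.42.0 served as alternatives, and scripts were tested on simulated data. Same-numbered wells deviated together from their group means (correlations across genes of 0.108 to 0.328), so a fit blocked on replicate number is printed where it changes a call. The labels do not say what equal numbers share, and 3 of 8 wells correlated best with their own number. Wells of a group differed beyond sampling noise (chi-square per degree of freedom of 5.14 to 23.6). Log2 CPM used a prior count of 2, and exact permutation tests used all 70 assignments. Among the members, counts were lowest for AXL, at 1 to 18 per well.

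The members, the 7 lists, the tests and the naming rule were all chosen with earlier results of these data known. The rule named every member, the 3 genes of each list with the smallest p in the unblocked fit, other listed genes by value, and the 3 genes with the highest r to each tested member. Figures used matplotlib 3.10.9.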

Additional observations from a re-analysis of the deposited data

Results flagged for a closer look

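In 3 of the 12 groups of 4 wells examined for the 6 genes, a single well was remote from the rest of its group (Dixon's gap-to-range ratio, 95% level), where chance would give about 0.6. For CCN1, control replicate 1 held 78.9 CPM against 128 to 137 CPM. For CCN2, control replicate 2 held 13.5 CPM against 6.67 to 7.65 CPM. For ANKRD1, stretch replicate 3 held 13.9 CPM against 5.65 to 6.54 CPM. Control replicate 3 of F3, at 358 CPM against 183 to 213 CPM, had a ratio of 0.8285, just short of the critical value. These are 4 different wells, so no well stood out for more than 1 of the genes.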

How the results depend on the processing

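Without a replicate block, the count of genes called by edgeR was 0 with at least 10 counts in every well, upper-quartile factors, library size only or DESeq2's size factors. It was 11 with no count filter, and 0 to 12 when each well was left out. Limma-voom called 0 and DESeq2 called 40. With the replicate block the counts were 102 in edgeR, 145 in DESeq2, 122 in limma-voom, 111 with library size only, 105 with DESeq2 size factors, 448 with no filter, and 43, 67, 186 and 74 when pairs 1 to 4 were left out. A block of 2 levels gave 58, replicates 1 and 2 alone 51, and replicates 3 and 4 alone 25. The cause of these differences was not tested.

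Of the 5 tested members, edgeR without the block called 0 to 1 when a well was left out (CCN2 without control replicate 2, 1 of 14704 genes). DESeq2 called 2 (40 of 14571 genes). With the replicate block the number was 1 in edgeR (102 of 14571 genes), 2 in DESeq2 (145 of 14571) and 3 in limma-voom (122 of 14571). DESeq2 gave ANKRD1 no adjusted p in that fit. The number was 1 with library size only or DESeq2 size factors (111 and 105 of 14571 genes) and 4 with no filter (448 of 21962). When a pair was left out it was 1 to 3 (43 to 186 genes in all). It was 1 in each set of 2 replicates alone (51 of 14656 and 25 of 14750 genes) and 0 with the block of 2 levels (58 of 14571). CCN2 passed in all 10 settings with the replicate block. With no filter the SE of F3 in the blocked fit was 0.04, beside an SD of 0.449 over its 4 pairs.

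The exact permutation test gave p = 0.0286 for 3 members, and for 1 to 3 when a well was left out, because CCN2 and ANKRD1 had p = 0.0571 without any one stretch well. CRIM1 changed sign, to -0.014 with the block without pair 3 and to -0.047 within replicates 1 and 2. The differences between members gave 0 calls under every alternative run. This decides little, since the smallest p possible could pass after adjustment only if most of the comparisons reached it. The planned search of promoters was not run. Depth limits AXL, the CCN genes other than CCN1 and CCN2, and THBD.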
